A study of Saccharomyces cerevisiae with 17 samples.

Results

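The hexose transporter genes HXT1 to HXT10 of Saccharomyces cerevisiae encode the proteins that carry glucose across the plasma membrane. They were taken by their systematic gene names and not by a cut on measured values, though earlier results of these data were known. They are 10 of the 6692 genes in the count table. Poly(A) RNA was sequenced from 4 genotypes of BY4741, a haploid MATa laboratory strain. One was wild type, and the others each lacked 1 gene of NMD (nonsense-mediated decay), by which cells destroy mRNAs that end translation prematurely. The deletions were upf1Δ, which removes the central RNA helicase of the pathway, and nmd4Δ and ebs1Δ, which remove proteins that bind Upf1. Every strain carried pRS415, a LEU2 plasmid, and was grown to mid-log phase in synthetic medium lacking leucine. The deleted genes were replaced by KlURA3, so the deletion strains shared a marker that the wild type did not have. In each comparison with wild type, the deleted gene and the marker cannot be told apart.

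The family divides the work of glucose uptake by affinity. Hxt1 and Hxt3 are low-affinity carriers that serve when glucose is plentiful. Hxt6 and Hxt7 are high-affinity carriers used when glucose is scarce, and Hxt2 and Hxt4 lie between these or on the high-affinity side. Hxt5 is known from slowly growing and starved cells, and Hxt8, Hxt9 and Hxt10 are weakly expressed members whose roles are less clear. Transcription of the family is set by glucose through a pair of pathways. The membrane sensors Snf3 and Rgt2 act through the casein kinases Yck1 and Yck2 and the ubiquitin ligase subunit Grr1 to remove Mth1 and Std1, which the repressor Rgt1 needs. In high glucose the repressor Mig1 acts with Cyc8 and Tup1, and the kinase Snf1 opposes it.

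There were 5 libraries of wild type, 3 of upf1Δ, 6 of nmd4Δ and 3 of ebs1Δ, with 19750807 to 59484802 counted reads each. Batch 1 held 11 of them, of every genotype, and batch 2 held 6, of wild type and nmd4Δ only. The batch 2 libraries resembled particular batch 1 libraries of their genotype. Wild type replicates 3 and 4 followed replicates 1 and 2, and nmd4Δ replicates 4, 5 and 6 followed replicates 1, 2 and 3, with correlations of 0.678 to 0.882 over 4064 genes in their deviations from the genotype mean within a batch. These pairs were averaged before a mean and standard deviation (SD) were taken, which leaves 3 sets of libraries per genotype. Wild type replicates 1 and 2 are the only ones of their genotype in batch 1, so their deviations mirror each other. Any batch 2 wild type library must then correlate positively with 1 of them, and the sign of a wild type match does not show pairing. Replicate 5 correlated at 0.426 with replicate 2 and was kept as its own set. The labels number the libraries of both batches as separate biological replicates and do not say whether a matched pair came from 1 culture. The tests count the 17 libraries as separate, so if matched pairs share a culture the p-values of wild type and nmd4Δ are too small. P-values measure only the spread between the libraries. NAM7, the table's name for UPF1, had 5 to 59 reads in the upf1Δ libraries and 4535 to 10325 in wild type, and NMD4 and EBS1 were likewise depleted in their own deletions. Replicate 2 of ebs1Δ stood apart in this family, and results that rest on it are given with and without it.

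Sequence sets how well each gene can be counted, because reads from identical stretches cannot be placed. The coding sequences of HXT6 (YDR343C, chrIV:1159608-1161320, minus strand) and HXT7 (YDR342C, chrIV:1154216-1155928, minus strand) were compared in the RefSeq R64 assembly. They differ at 3 of 1713 bases, and the first 1631 bases are identical. The substitutions from HXT7 to HXT6, counted from the first base of the HXT7 coding sequence, are C1632T, A1666G and C1677T. The stretches that tell this pair apart are shown on the coding strand with the differing bases in capitals, first around position 1632 and then around position 1666, where the window also reaches position 1677.
HXT7, position 1632: ggttccaccatcCagaagaggtgcc
HXT6, position 1632: ggttccaccatcTagaagaggtgcc
HXT7, position 1666: gctgaagaaatgActcacgatgaCa
HXT6, position 1666: gctgaagaaatgGctcacgatgaTa

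Of the 1639 windows of 75 bases in the coding sequence of HXT6 or of HXT7, 82 (5.00%) occur once in the genome. HXT9 (YJL219W, chrX:19497-21200, plus strand) shares 97.2% of its coding bases with HXT11, a transporter outside the 10, and 46.4% of its 75-base windows are unique. The remaining members have 91.8% to 100% unique windows. Among all 6275 genes of sufficient length, 91.6% are unique throughout and 5.47% have fewer than 50% unique windows. Apart from HXT6 and HXT7, members share at most 83.3% of their coding bases, for HXT1 and HXT3. How reads with several positions were counted is not given here, so the split between HXT6 and HXT7 is uncertain, and their summed counts are given for each comparison. For HXT9 the division of reads with HXT11 is likewise uncertain.

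**Figure D1:**
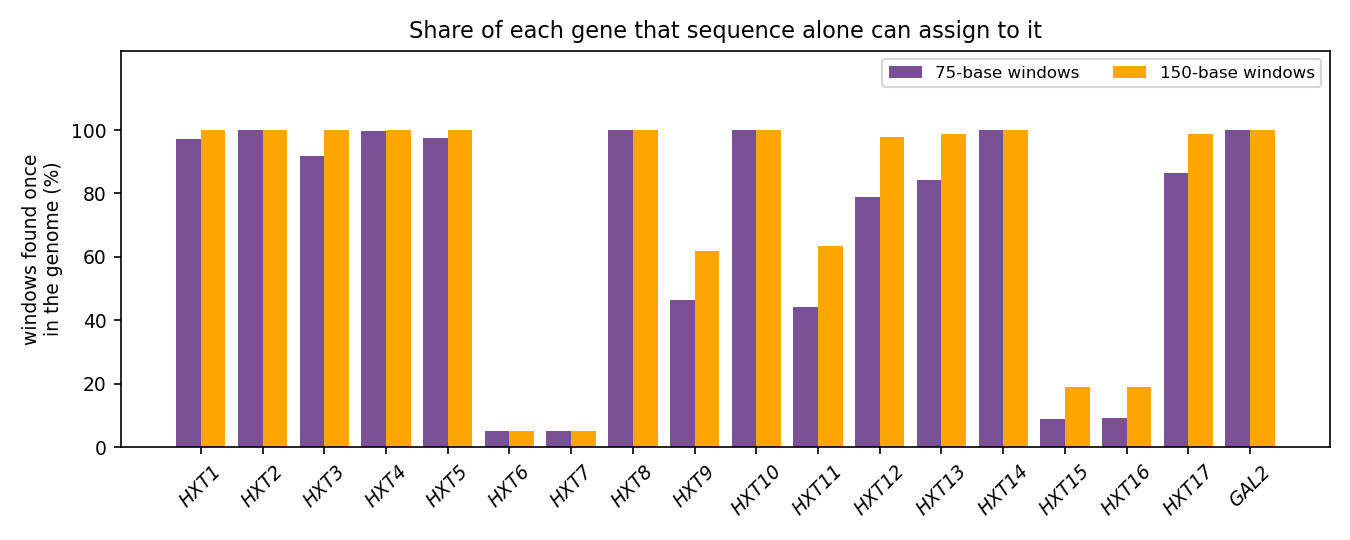
Share of windows in each gene that occur once in the R64 genome (percent), for windows of 75 and 150 bases, in the members and 8 other genes of the family. HXT12 is annotated as a pseudogene. HXT6 and HXT7 stand at 5.00% for 75 bases and HXT9 at 46.4%, while the other 7 members reach at least 91.8%.

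By counted reads, the members divided into a high and a low class with a wide gap between them. All 10 passed the filter on low counts. Expression is given as CPM, the usual read count scaled to library size, here after trimmed-mean (TMM) scaling, as mean ± SD over 3 sets of libraries. Averaged over the genotypes, HXT1, HXT2, HXT3 and HXT4 were above 50 CPM, from 54.0 for HXT4 to 915 for HXT3. The other 6 lay below 10 CPM, from 1.90 for HXT10 to 7.11 for HXT7. If reads with several positions were dropped, the levels of HXT6, HXT7 and HXT9 are too low. The class of HXT6 and HXT7 is therefore uncertain.

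The low-affinity carrier HXT3 (YDR345C, chrIV:1162957-1164660, minus strand) was the most abundant member in wild type. Its 5 wild type libraries held 915, 1082, 894, 1064 and 1072 CPM. HXT1 (YHR094C, chrVIII:290913-292625, minus strand), the other low-affinity carrier, held 475, 530, 490, 536 and 488 CPM. HXT2 (YMR011W, chrXIII:288079-289704, plus strand) held 332, 435, 331, 422 and 416 CPM. Replicates 1 and 3, a matched pair, were the lowest for HXT3 and HXT2. HXT4 (YHR092C, chrVIII:287081-288811, minus strand) was far below these carriers, at 79.99, 76.3, 77.1, 70.5 and 70.0 CPM. HXT1 to HXT3 together made up 94.95% of the family's counted reads in wild type. In the deletions they made up 95.9% (nmd4Δ), 96.1% (upf1Δ) and 96.8% (ebs1Δ). These shares are too high if many reads of HXT6 and HXT7 were dropped.

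Levels were set in order per kilobase of coding sequence, since the genes differ in length. The places of HXT6, HXT7 and HXT9 in this order are uncertain, because reads with several positions may be missing from their counts. In wild type HXT3 had 596 ± 57.03 CPM per kb (SD, n = 3 sets), HXT1 had 293 ± 16.3 and HXT2 had 241 ± 32.4. HXT4 followed at 42.7 ± 2.49 CPM per kb. HXT7 had 6.42 ± 0.472 and HXT5 (YHR096C, chrVIII:294669-296447, minus strand) 3.69 ± 2.18 CPM per kb. HXT6 had 1.92 ± 0.461 and HXT8 (YJL214W, chrX:26887-28596, plus strand) 1.84 ± 0.293 CPM per kb. The lowest were HXT9 at 0.887 ± 0.0328 and HXT10 (YFL011W, chrVI:112345-113985, plus strand) at 0.682 ± 0.0811 CPM per kb. HXT3 was thus 875 times as abundant as HXT10 and 14.0 times as abundant as HXT4. The library ranges of neighbours in this order overlapped for HXT7 and HXT5, HXT5 and HXT6, HXT6 and HXT8, and HXT9 and HXT10, and were separate for the other neighbours. The order of the low class differed from wild type in each deletion, with HXT8 moving from rank 8 to rank 6 in nmd4Δ and ebs1Δ. In upf1Δ HXT8 was in rank 5 at 3.45 ± 0.306 CPM per kb and HXT7 in rank 7 at 2.56 ± 0.305. From rank 6 down, the ranges of neighbours in upf1Δ all overlapped. The top 4 ranks by mean were the same in all 4 genotypes. The ranges of HXT1 and HXT2 overlapped in all 3 deletions, and those of HXT3 and HXT1 in ebs1Δ.

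**Figure D2:**
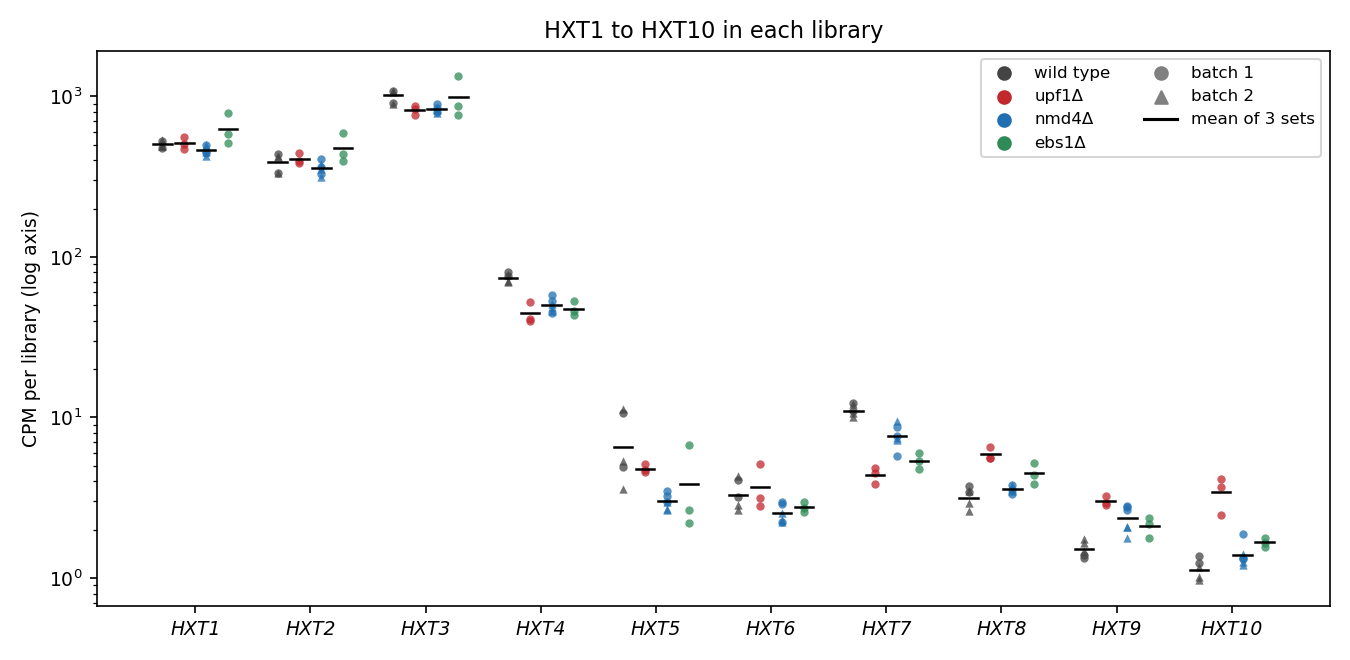
Expression of each member in every library (CPM, log axis), grouped by genotype. Points are libraries and bars are means over 3 sets of libraries; HXT1 to HXT4 lie above 39 CPM in every library and HXT5 to HXT10 below 13 CPM, and the HXT7 points of each deletion lie under those of wild type.

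In upf1Δ HXT4 and HXT7 fell, and the weakly expressed HXT8, HXT9 and HXT10 rose. The 3 most abundant carriers, HXT1, HXT2 and HXT3, were not called. Changes are given as log2 fold changes ± standard error from edgeR's quasi-likelihood test with Benjamini-Hochberg adjustment over the 6162 genes tested. Called higher were 3 members and lower 2, and 5 were not called. Over all tested genes 36.4% were called higher and 35.1% lower, 71.5% in either direction, so 5 called of 10 is not above the background.

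HXT7, the high-affinity carrier, had 4.48, 3.83 and 4.86 CPM in the 3 upf1Δ libraries and 12.2, 10.9, 10.7, 12.1 and 10.1 CPM in wild type. Every upf1Δ library was below every wild type library. The level fell by 1.33 ± 0.155 on the log2 scale, to 0.398 of wild type (adjusted p = 3.79e-07). HXT4 had 41.0, 39.9 and 52.3 CPM, all below the wild type range, and fell by 0.82 ± 0.103 on the log2 scale, to 0.568 of wild type (adjusted p = 1.72e-06). HXT6, the near-identical partner of HXT7, had 3.16, 2.80 and 5.14 CPM against 4.07, 3.22, 4.30, 2.85 and 2.67 in wild type. These ranges overlapped, and its adjusted p was 0.994 with a 95% interval of -0.46 to 0.45. With the reads of HXT6 and HXT7 summed, the pair went from 14.3 ± 1.46 CPM in wild type to 8.09 ± 1.73 in upf1Δ, a log2 fold change of -0.88 ± 0.146 (adjusted p = 2.94e-05).

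HXT10 had 3.69, 2.45 and 4.11 CPM in upf1Δ and 1.37, 1.24, 1.01, 1.16 and 0.966 CPM in wild type. The groups were separate, and the gene rose 2.697-fold (log2 1.43 ± 0.189, adjusted p = 2.02e-06). The counts behind these levels were 64 to 104 reads in upf1Δ and 32 to 56 in wild type. HXT8 had 6.51, 5.59 and 5.62 CPM against 3.76, 3.45, 3.47, 2.92 and 2.62, and rose 1.76-fold (log2 0.81 ± 0.137, adjusted p = 3.59e-05). HXT9 had 2.86, 2.91 and 3.24 CPM against 1.33, 1.40, 1.64, 1.76 and 1.47. It rose 1.77-fold (log2 0.83 ± 0.177, adjusted p = 0.000403), and the libraries of both genes were separate between genotypes. In batch 1 alone, the only batch with upf1Δ, the HXT9 change was larger (log2 1.13, adjusted p = 0.000125). HXT11, with which HXT9 shares most of its sequence, was at 1.31 ± 0.299 CPM in wild type and 1.64 ± 0.210 in upf1Δ and was not called (log2 0.31, adjusted p = 0.257).

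The abundant carriers showed smaller differences. HXT1 had 561, 468 and 502 CPM in upf1Δ, inside and around the wild type range, with a 95% interval of -0.24 to 0.26 for its log2 fold change. HXT2 had 446, 386 and 394 CPM and an interval of -0.25 to 0.37. HXT3 had 876, 833 and 764 CPM, all below the lowest wild type library, with a log2 fold change of -0.30 ± 0.152 that did not pass the test (adjusted p = 0.0861). HXT3 was called lower without ebs1Δ replicate 2, which enters the shared estimate of spread (log2 -0.33, adjusted p = 0.00167) and without ebs1Δ replicate 1 (log2 -0.31, adjusted p = 0.0367). It was also called with DESeq2 (adjusted p = 0.0442) and with only these genotypes in the fit (adjusted p = 0.0278). HXT5 had 4.70, 5.09 and 4.55 CPM in upf1Δ and 10.7, 4.88, 11.2, 5.37 and 3.61 in wild type, where the matched replicates 1 and 3 were high, and was not called (adjusted p = 0.156). The 5 calls in upf1Δ held under every alternative in which the gene was tested.

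In nmd4Δ most of the called members were lower. HXT4, HXT5, HXT6 and HXT7 fell and HXT9 rose, against a background of 14.4% of tested genes lower and 13.6% higher (28% either). The other 5 members were not called. HXT4 ranged from 44.7 to 58.0 CPM over the 6 nmd4Δ libraries, with a median of 49.5, and lay below all wild type libraries. Its fall of 0.59 ± 0.0739 on the log2 scale, to 0.665 of wild type (adjusted p = 3.86e-05), ranked 61 by p among all tested genes. HXT7 ranged from 5.73 to 9.50 CPM with a median of 7.53, also below every wild type library, and fell by 0.52 ± 0.103 to 0.696 of wild type (adjusted p = 0.00162).

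HXT5 ranged from 2.65 to 3.47 CPM with a median of 2.98 and was below every wild type library, with a log2 fold change of -1.29 ± 0.316 (adjusted p = 0.00921). The high wild type replicates 1 and 3 weigh on this value. Without the pair it was -0.66 (adjusted p = 0.0594). HXT6 ranged from 2.22 to 2.97 CPM with a median of 2.43, overlapping wild type, with a log2 fold change of -0.46 ± 0.155 (adjusted p = 0.0321), and -0.23 (adjusted p = 0.283) without the same replicates. HXT9 ranged from 1.77 to 2.79 CPM with a median of 2.37, just above the wild type maximum of 1.76, and rose 1.46-fold (log2 0.55 ± 0.130, adjusted p = 0.00501). HXT1, HXT2, HXT3, HXT8 and HXT10 had log2 fold changes of -0.13, -0.12, -0.28, 0.15 and 0.27. For HXT3 the 95% interval was -0.53 to -0.04 and the adjusted p 0.0727, which was 0.0303 without ebs1Δ replicate 1 and 0.00351 without ebs1Δ replicate 2. It was 0.0449 with DESeq2, 0.016 in batch 2 alone and 0.00198 with only these genotypes in the fit. The HXT6 call was also lost when any 1 of wild type replicates 1 and 3 or nmd4Δ replicates 3, 5 and 6 was left out (adjusted p 0.0598 to 0.110). The summed reads of HXT6 and HXT7 fell to 10.2 ± 1.53 CPM (log2 -0.49 ± 0.102, adjusted p = 0.00224).

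Taking the matched libraries as a block in limma voom, with a consensus correlation of 0.7185, left HXT4 as the sole member called in nmd4Δ (log2 -0.58, adjusted p = 0.00104). The adjusted p was then 0.0789 for HXT7, 0.0975 for HXT5, 0.177 for HXT6 and 0.384 for HXT9. Over all genes 250 were called higher and 266 lower with this block, beside 836 and 889 in the edgeR fit of all libraries. In batch 1 alone 89 were higher and 43 lower. Within batch 1 HXT4 had a log2 fold change of -0.59 (adjusted p = 0.0439) and within batch 2 one of -0.58 (adjusted p = 0.000126). HXT7 had -0.65 (adjusted p = 0.0587) and -0.43 (adjusted p = 0.0328). HXT5 had -1.27 (adjusted p = 0.166) and -1.30 (adjusted p = 0.141), and HXT6 had -0.43 (adjusted p = 0.353) and -0.49 (adjusted p = 0.0983). HXT9 had 1.01 in batch 1 (adjusted p = 0.0155) and 0.29 in batch 2 (adjusted p = 0.201). In edgeR, an interaction of nmd4Δ with batch called no member, with an adjusted p of 0.9999 for each. Before adjustment 1 of them, HXT9, was under 0.05.

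In ebs1Δ the fall of HXT4 and HXT7 was again the clearest difference. HXT7 had 4.75, 5.32 and 5.97 CPM, all below wild type, and fell by 1.05 ± 0.152 on the log2 scale, to 0.483 of wild type (adjusted p = 6.74e-05). HXT4 had 43.2, 53.5 and 46.3 CPM, all below wild type, and fell by 0.71 ± 0.102, to 0.610 of wild type (adjusted p = 8.54e-05). HXT8 had 3.83, 5.21 and 4.41 CPM and rose 1.33-fold (log2 0.41 ± 0.142, adjusted p = 0.0445). With 1 member higher and 2 lower, the counts stand beside a background of 14% higher and 7.38% lower (21.4% either). The other 7 members were not called. HXT9 (2.38, 2.16 and 1.76 CPM) and HXT10 (1.78, 1.66 and 1.57 CPM) were above every wild type library but did not pass the test, with adjusted p of 0.237 and 0.185. The summed reads of HXT6 and HXT7 fell to 8.12 ± 0.524 CPM (log2 -0.86 ± 0.147, adjusted p = 0.000353).

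Replicate 2 of ebs1Δ was the highest of its genotype for HXT1 to HXT5 and HXT8. It held 783, 594 and 1338 CPM of HXT1, HXT2 and HXT3, where replicates 1 and 3 held 510 and 581, 398 and 438, and 766 and 864. The family sum was 2792 CPM in it, the highest of the 17 libraries. With it, HXT1 and HXT2 had log2 fold changes of 0.30 ± 0.115 (adjusted p = 0.0735) and 0.28 ± 0.144 (adjusted p = 0.182). Without it these were 0.10 (adjusted p = 0.459) and 0.09 (adjusted p = 0.687). Without it HXT3 was called lower (log2 -0.32, adjusted p = 0.0223), as was HXT5 (log2 -1.68, adjusted p = 0.0195), and HXT8 was no longer called (log2 0.28, adjusted p = 0.218). HXT7 was -1.05 with an adjusted p of 0.000432. Without replicate 1 HXT1 was called higher (log2 0.43, adjusted p = 0.00712). The HXT8 call was lost with the replicate block (adjusted p = 0.0706) and in 11 of the 17 fits that left out 1 library (log2 0.28 to 0.44, adjusted p 0.056 to 0.218), and also with the matched libraries as a block (adjusted p = 0.0691) and within batch 1 (log2 0.31, adjusted p = 0.260).

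**Figure D3:**
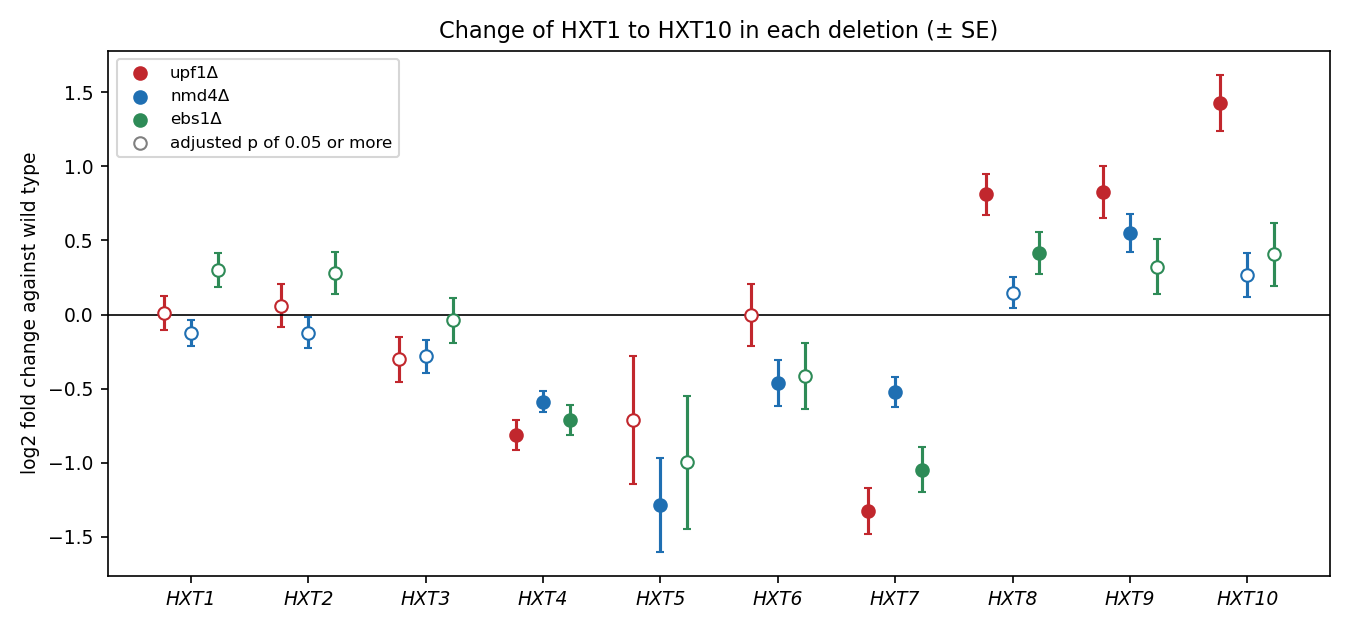
Log2 fold change of each member in each deletion against wild type, with bars for ± the standard error of the edgeR fit and filled points for members called at an adjusted p under 0.05. HXT4 and HXT7 lie to the lower side in all 3 deletions, and HXT8 to HXT10 are furthest to the higher side in upf1Δ.

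HXT4 and HXT7 were called lower in all 3 deletions. Over all tested genes 2.37% were called lower in all 3, and 6.62% higher in all 3. The 3 comparisons share the wild type libraries, and the deletions share KlURA3. Side by side, HXT4 stood at 74.0 ± 4.31 CPM in wild type, 44.4 ± 6.88 in upf1Δ, 50.1 ± 4.21 in nmd4Δ and 47.7 ± 5.26 in ebs1Δ. HXT7 stood at 10.997 ± 0.809, 4.39 ± 0.522, 7.70 ± 1.33 and 5.35 ± 0.609 CPM in the same order.

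The deletions were also compared with one another. Between upf1Δ and nmd4Δ 36% of tested genes were higher in upf1Δ and 30.9% lower (66.9% either), and of the members 2 were higher and 2 lower. HXT10 was 2.24-fold higher in upf1Δ than in nmd4Δ (log2 1.16 ± 0.175, adjusted p = 1.14e-05). HXT8 was 1.58-fold higher (log2 0.66 ± 0.129, adjusted p = 0.000185). HXT7 was lower, by 0.80 ± 0.151 on the log2 scale (adjusted p = 0.000127), and for HXT10, HXT8 and HXT7 the library ranges of these genotypes were separate. The summed reads of HXT6 and HXT7 were lower by 0.39 (adjusted p = 0.0211), a smaller difference than that of HXT7 alone. HXT4 was lower by 0.23 ± 0.0973 (adjusted p = 0.0479), a call lost when any 1 of 8 libraries was left out. These were replicates 1 and 5 of wild type, 1 and 2 of upf1Δ and 1, 3, 4 and 6 of nmd4Δ, with an adjusted p of 0.0595 to 0.151. It was also lost in 6 other settings, among them the replicate numbers as a block (adjusted p = 0.0644) and the matched libraries as a block (adjusted p = 0.0631). The calls of HXT7, HXT8 and HXT10 held with the replicate block (adjusted p = 0.000938, 0.00126 and 5.01e-05).

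Between upf1Δ and ebs1Δ 33.8% of tested genes were higher in upf1Δ and 27.4% lower (61.2% either). HXT10 was 2.04-fold higher in upf1Δ (log2 1.03 ± 0.187, adjusted p = 0.00012), and the library ranges were separate. HXT8 and HXT9 were higher by 0.40 (adjusted p = 0.0167) and 0.50 (adjusted p = 0.0188), and HXT1 was lower by 0.29 (adjusted p = 0.0367). HXT7 was not called, with a 95% interval of -0.64 to 0.08, and the summed HXT6 and HXT7 reads differed by -0.02 (adjusted p = 0.901). The HXT1 call was lost without upf1Δ replicate 2 or 3 or ebs1Δ replicate 2, with a difference of -0.31 to -0.12 (adjusted p 0.0698 to 0.264). That of HXT8 was lost without upf1Δ replicate 1 or ebs1Δ replicate 1 or 3 (adjusted p 0.054 to 0.0972), and that of HXT9 without upf1Δ replicate 3 or ebs1Δ replicate 3 (adjusted p 0.083 to 0.104) and with the matched libraries as a block (adjusted p = 0.119). The HXT1 call was also lost in batch 1 alone (adjusted p = 0.0778), with only these genotypes (adjusted p = 0.103), with the replicate block (adjusted p = 0.0779) and with matched libraries summed.

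Between nmd4Δ and ebs1Δ 10% of tested genes were higher in nmd4Δ and 16% lower (26% either). HXT1 and HXT2 were lower in nmd4Δ, by 0.43 (adjusted p = 0.0113) and 0.40 (adjusted p = 0.038), and HXT7 was higher by 0.53 (adjusted p = 0.0172). The summed reads of HXT6 and HXT7 were higher by 0.36 and not called (adjusted p = 0.0666). None of the 3 calls remained without ebs1Δ replicate 2, with differences of -0.22, -0.20 and 0.54 in that order, or within batch 1 alone. HXT2 lost its call in 10 of the 17 fits that left out 1 library (adjusted p 0.0501 to 0.291), and HXT7 also without nmd4Δ replicate 2 (log2 0.46, adjusted p = 0.0524).

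The high and low classes were set beside other genes of like abundance. In upf1Δ the median log2 fold change was -0.15 over the 4 high members and 0.41 over the 6 low ones. Over all tested genes of at least 50 CPM it was -0.18, and over those under 10 CPM it was 0.98. In nmd4Δ the medians were -0.20 and -0.16 for the members, against -0.03 and 0.15 for the genes of each class. In ebs1Δ they were 0.12 and -0.05, against -0.05 and 0.27. With HXT6 and HXT7 merged, the high minus low difference of the members turned from 0.17 to -0.20 in ebs1Δ, and it moved from -0.55 to -0.96 in upf1Δ and from -0.05 to -0.35 in nmd4Δ. Among the low members of upf1Δ the values ran from -1.33 for HXT7 to 1.43 for HXT10. Of the 6 low members 3 were called higher and 1 lower in upf1Δ, beside 61.4% and 5.19% of the 982 tested genes under 10 CPM. In nmd4Δ it was 1 and 3, beside 18.9% and 4.58%, and in ebs1Δ 1 and 1, beside 18.5% and 1.73%. Of the 4 high members 1, HXT4, was called lower in each deletion and none higher. Among the 3095 genes of at least 50 CPM, 53.7% were called lower and 19.4% higher in upf1Δ, 20.3% and 8.69% in nmd4Δ, and 11% and 7.37% in ebs1Δ.

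The summed expression of the 10 genes was 2010 ± 160 CPM in wild type, 1813 ± 119 in upf1Δ, 1718 ± 45.9 in nmd4Δ and 2159 ± 559 in ebs1Δ. Single libraries ranged from 1824 to 2148 CPM in wild type, from 1740 to 1950 in upf1Δ and from 1653 to 1830 in nmd4Δ. In ebs1Δ they ranged from 1736 to 2792. By total counts, without TMM scaling, the upf1Δ sum was 1957.4 CPM, so how far it lies from wild type depends on the scaling. HXT3 supplied 50.5% of the sum in wild type, 45.5% in upf1Δ, 48.2% in nmd4Δ and 45.5% in ebs1Δ. HXT4 supplied 3.71% in wild type and 2.46%, 2.92% and 2.26% in the deletions in that order. The sum and the shares include HXT6, HXT7 and HXT9 with the uncertainty given above. CPM are relative to the other mRNAs of the library, so a lower value does not separate fewer transcripts per cell from more of other transcripts, or fewer expressing cells from less RNA in each.

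Regulators of the family were read from lists of named genes. Of the 8 genes of the sensor and Rgt1 pathway, 3 fell and none rose in upf1Δ (median log2 fold change -0.19, against -0.02 over all tested genes). That is near the 35.1% of all tested genes called lower. YCK2, a casein kinase that relays the sensor signal, went from 193 ± 6.80 CPM in wild type to 144 ± 4.68 in upf1Δ (log2 -0.45 ± 0.0474, adjusted p = 1.09e-07). STD1, a corepressor with Rgt1, fell by 0.23 ± 0.0638 (adjusted p = 0.00351), and GRR1, which promotes removal of Mth1 and Std1, by 0.19 ± 0.0491 (adjusted p = 0.00203). In nmd4Δ 1 of the 8 fell, YCK2 by 0.11 (adjusted p = 0.0263), and in ebs1Δ none was called by edgeR, with 2 under 0.05 before adjustment.

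Of the 13 genes of the Snf1 and Mig1 pathway, 1 rose and 9 fell in upf1Δ (median -0.26), where 71.5% of all tested genes were called and 53.7% of those of at least 50 CPM were lower. The 1 that rose was MIG3, a zinc finger repressor related to Mig1, from 17.1 ± 1.72 to 52.5 ± 4.37 CPM (log2 1.63 ± 0.0945, adjusted p = 1.16e-11). SNF1 (log2 -0.38, adjusted p = 5.37e-06), GLC7, the phosphatase subunit that counters Snf1 (log2 -0.38, adjusted p = 9.61e-07), and CYC8 (log2 -0.35, adjusted p = 2.04e-05) fell. In nmd4Δ only MIG1 was called, lower by 0.21 (adjusted p = 0.0149). In ebs1Δ MIG3 rose by 0.42 (adjusted p = 0.00513) and GLC7 fell by 0.17 (adjusted p = 0.0146). Of the 4 hexose kinase genes, all above 50 CPM, 3 fell in upf1Δ, beside the 53.7% given above for genes of that level. None was called by edgeR in the other deletions, where 0 (nmd4Δ) and 3 (ebs1Δ) were under 0.05 before adjustment. HXK1, hexokinase isoenzyme 1, went from 243 ± 61.1 to 114 ± 29.1 CPM (log2 -1.19 ± 0.283, adjusted p = 0.00198). HXK2, the main hexokinase in glucose, had -0.26 (adjusted p = 0.0126) and EMI2 -0.46 (adjusted p = 0.0169).

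Of the 12 glucose-repressed genes of sugar and carbon use, 6 rose and 4 fell in upf1Δ (median 0.52), 4 rose and 3 fell in nmd4Δ, and 2 rose and 2 fell in ebs1Δ. Over all tested genes 36.4% were called higher and 35.1% lower in upf1Δ, 13.6% and 14.4% in nmd4Δ, and 14% and 7.38% in ebs1Δ. Among those under 10 CPM, 61.4% were higher and 5.19% lower in upf1Δ. GAL7, a galactose pathway enzyme, went from 3.11 ± 0.262 CPM in wild type to 18.5 ± 1.27 in upf1Δ (log2 2.63 ± 0.144, adjusted p = 5.04e-12). GAL3, the galactose sensor, and GAL1, galactokinase, rose by 1.45 and 1.13 on the log2 scale in upf1Δ. PCK1, an enzyme of glucose synthesis, rose by 1.31 in upf1Δ (adjusted p = 2.85e-06) and fell by 0.57 in nmd4Δ (adjusted p = 0.0049). The 4 that fell in upf1Δ were ADH2, an alcohol dehydrogenase (log2 -0.96), FBP1, another enzyme of glucose synthesis (log2 -0.96), and the transcriptional regulators HAP4 (log2 -0.81) and CAT8 (log2 -0.61). ADH2 and FBP1 also fell in nmd4Δ (log2 -0.92 and -1.76) and in ebs1Δ (log2 -0.55 and -1.06).

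The rest of the transporter family had low counts. Of 8 listed genes, HXT12, annotated as a pseudogene, was absent from the count table, HXT15 and HXT16 did not pass the filter on low counts, and 5 were tested. HXT15 and HXT16 differ at 2 of 1704 coding bases, with 8.96% and 9.20% unique windows of 75 bases, so their counts are uncertain. In upf1Δ 3 rose and none fell (median 1.35), and 1 rose in each of the other deletions. All 5 lay under 10 CPM. Of all tested genes under 10 CPM, 61.4% were called higher in upf1Δ, 18.9% in nmd4Δ and 18.5% in ebs1Δ, so these counts are near the background. HXT17 went from 0.569 ± 0.104 CPM in wild type to 3.05 ± 0.422 in upf1Δ (log2 2.14 ± 0.179, adjusted p = 3.46e-09). It rose by 0.97 in nmd4Δ (adjusted p = 0.000204) and by 0.89 in ebs1Δ (adjusted p = 0.00437). HXT13 (log2 1.92, adjusted p = 0.000906) and HXT14 (log2 1.35, adjusted p = 0.00471) rose in upf1Δ from levels of 0.204 and 0.242 CPM. GAL2, the galactose carrier, and HXT11 were not called in any deletion.

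The members lie on chromosomes IV, VI, VIII, X and XIII, with HXT7, HXT6 and HXT3 in one group on IV and HXT4, HXT1 and HXT5 in another on VIII. No member overlaps an annotated gene. Of the 14 neighbouring genes outside the family 11 were tested, of which 5 were higher and 3 lower in upf1Δ, 2 and 1 in nmd4Δ, and 2 and 0 in ebs1Δ. In either direction 71.5% of all tested genes were called in upf1Δ, 28% in nmd4Δ and 21.4% in ebs1Δ, so these counts are near the background. Both neighbours of HXT8 were higher in upf1Δ, IMA5, an alpha-glucosidase gene, by 2.30 (adjusted p = 3.02e-14) and YJL213W by 2.53 (adjusted p = 4.45e-15) on the log2 scale. YDR344C, between HXT6 and HXT3 on the same strand, was higher in upf1Δ by 0.68 (adjusted p = 0.000407) and lower in nmd4Δ by 0.42 (adjusted p = 0.00916). MSR1, an arginyl-tRNA synthetase gene on the same strand beside HXT4, was higher in upf1Δ by 0.42 (adjusted p = 1.29e-05), where HXT4 was lower. YJL218W, beside HXT9, was higher in nmd4Δ by 0.41 (adjusted p = 0.00162).

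The 800 bases upstream of each start codon were searched on both strands for the letters that Rgt1 is known to bind, CGGANNA, and for a Mig1 core, taken as GGGG directly after GC, GT, CC or CT. A match to the Rgt1 letters stood upstream of 9 of 10 members, 36 in all, and 58.3% of the 5997 windows of the genome hold at least 1. Upstream of HXT3 there were 8 and of HXT1 and HXT8 6 each, while 1.97% of all windows hold 4 or more. HXT10 had none and HXT6 had 1. The Mig1 core stood upstream of 10 of 10 members, 21 matches in all, against 35.8% of windows. HXT2 and HXT4 had 4 each, a number that 0.484% of windows reach. No match to one motif overlapped a match to the other. A match is a run of letters and was not tested as a binding site.

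Matches are shown for HXT4 and HXT7, which were lower in every deletion, and for HXT9, which was higher in upf1Δ and nmd4Δ. Each line gives the strand of the gene with the motif in capitals, in R64 coordinates from RefSeq, and a motif on the other strand appears as its complement. The genes HXT4 and HXT7 lie on the minus strand and HXT9 on the plus strand.
HXT4 Rgt1, chrVIII:289445-289471: ttctttcggtTTATCCGctttcttcca
HXT4 Rgt1, chrVIII:289220-289246: aaaaacacttCGGATAAaaacggtcaa
HXT4 Rgt1, chrVIII:289091-289117: taagaaacaaCGGAGGAaaactcaaat
HXT4 Mig1, chrVIII:289294-289319: ttcccaccccCCCCGGttttttttcc
HXT4 Mig1, chrVIII:289262-289287: ccccatattcCCCCGCctgcaggaaa
HXT4 Mig1, chrVIII:289046-289071: gtttatgaagGTGGGGtggtaagaaa
HXT4 Mig1, chrVIII:288982-289007: agcttcaacaCTGGGGaatgaataat
HXT7 Rgt1, chrIV:1156636-1156662: acaaatttttTTTTCCGtaacaacaaa
HXT7 Rgt1, chrIV:1156573-1156599: ccagagccgtTTTTCCGccatatttat
HXT7 Mig1, chrIV:1156469-1156494: aggaatttgtGCGGGGtaggaaatct
HXT7 Mig1, chrIV:1156175-1156200: aaggaaaaatCCCCACcatctttcga
HXT9 Rgt1, chrX:18952-18978: acataaccatTTCTCCGcggaattaca
HXT9 Rgt1, chrX:18976-19002: acataatcatTTCTCCGggaaaattac
HXT9 Rgt1, chrX:19001-19027: acataatcatTTCTCCGtgcgagttat
HXT9 Mig1, chrX:18929-18954: aaccctcgatCCCCGCaacaattaca

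The 3 Rgt1 matches upstream of HXT9 follow one another closely, and the 10 bases before each motif read nearly alike. HXT7 had 2 Rgt1 and 2 Mig1 matches, and HXT6, with an almost identical coding sequence, had 1 and 3 at other distances from its start codon.

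**Figure D4:**
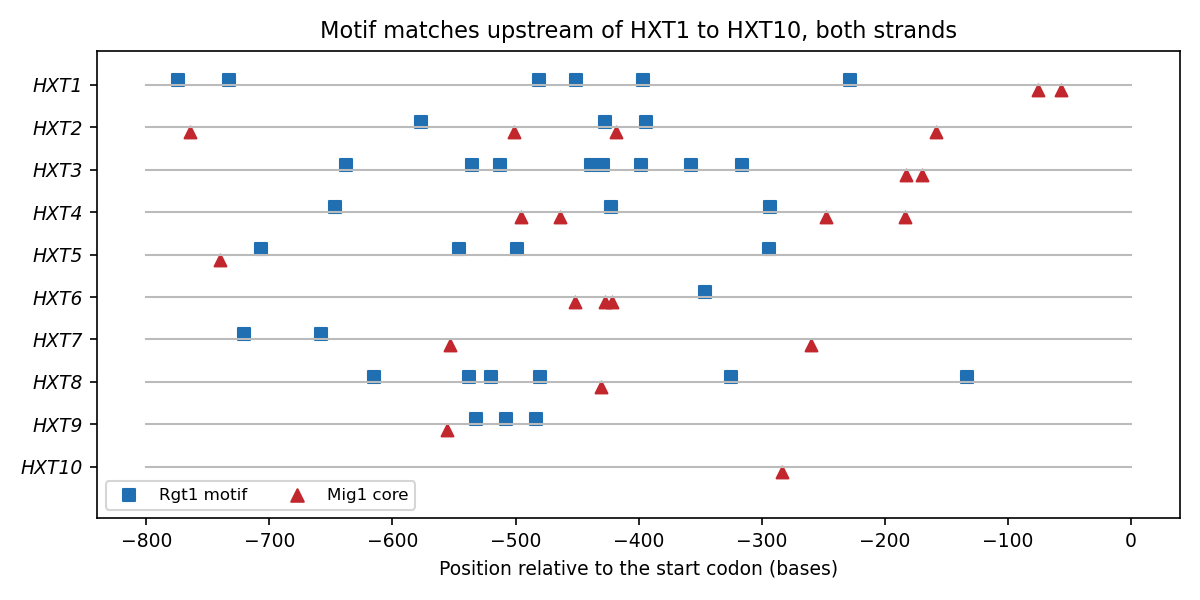
Position of each Rgt1 (CGGANNA) and Mig1 core match upstream of the members' start codons (distance in bases, both strands, windows of 800 bases). HXT3 carries 8 Rgt1 matches and HXT10 none; HXT2 and HXT4 carry 4 Mig1 matches each.

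The gene with the most similar pattern was sought for each member among 4837 genes of at least 10 CPM outside the family. Likeness was the root mean square difference of the log2 CPM means of the 4 genotypes, each centred on its own mean, so a small value is a close match over 4 points. HXT1 was nearest to AAH1, adenine deaminase, at 0.0091, and HXT2 was nearest to the same gene at 0.0213. HXT3 was nearest to OGG1, a DNA repair glycosylase, at 0.0178. HXT4 was nearest to DDR48 at 0.0583, HXT6 to TMA46 at 0.0378, HXT8 to YEA6 at 0.0222, HXT9 to LTO1 at 0.0372 and HXT10 to PCA1 at 0.0170. The most distant nearest genes belonged to HXT5, with ORM2 at 0.206, and HXT7, with YGP1 at 0.167.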

How the data were processed

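Per the labels' protocols, a directional kit was used to make the 17 libraries from poly(A) RNA. The authors deposited raw counts of reads for each gene and library, and every value column was used. The submitters' processing notes name STAR 2.7.11a, the build sacCer3, and featureCounts from Subread 2.0.5. Which annotation and strand option were set, and how multiply placed reads were treated, was not stated in the sources used here.

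The tests used edgeR 4.0.16 under R 4.3.3. After filterByExpr, 6162 of 6692 genes were scaled by TMM and fitted by robust quasi-likelihood with genotype and batch (5 coefficients, 12 residual degrees of freedom, common dispersion 0.00525), using all 17 libraries. Two-sided p-values were adjusted over all tested genes (Benjamini-Hochberg), with calls at 0.05. Intervals of log2 fold changes are 95% and cover the spread between libraries only. CPM are relative to the TMM-scaled library size and carry no batch correction.

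Coordinates and sequences come from RefSeq R64, the same assembly as sacCer3, and 6008 genes of the table matched it. Sequence steps used Python 3.11.15 and Biopython 1.88.

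The members and gene lists were chosen with earlier results of these data known. All members are named, and of each list at most the 4 called genes with the lowest p, with the direct neighbours of members; HXT11, GAL2, MIG1, ADH2, FBP1, HAP4 and CAT8 were named after their values were seen. Same-numbered batch 1 libraries were taken as pairs where each pair's deviations correlated above 0.1 over at least 3 pairs, which held for upf1Δ with nmd4Δ (0.127 to 0.182) and for no other genotypes. Alternatives were DESeq2 1.42.0, other scalings and filters, batch terms, single batches, blocks (limma 3.58.1), summed libraries, merged HXT6 and HXT7, and leaving out libraries. The fit was tested on simulated counts.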

Additional observations from a re-analysis of the deposited data

Results flagged for a closer look

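In nmd4Δ, replicate 3 held 1.88 CPM of HXT10 and stood apart from the other 5 libraries, which held 1.199 to 1.41 CPM. The gap to the nearest library was 0.687 of the group's whole range. This was 1 of 20 groups of 4 to 10 libraries examined, and chance marks about 1 group in 20. HXT10 was not called in nmd4Δ, and replicate 6, which follows replicate 3 over all genes, had the lowest level of the 6.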

How the results depend on the processing

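Of 658 member values under settings other than left-out libraries, 595 kept their direction and side of the threshold, 39 lost a call, 15 gained one and 9 changed sign. With libraries left out these were 1205, 62, 18 and 35 of 1320. No called value changed sign. In upf1Δ against wild type 5 members were called, and 5 to 6 with libraries left out. In nmd4Δ against wild type the 5 calls became 2 in batch 1 alone, 3 in batch 2 alone, 3 with matched libraries summed and 1 with them as a block in limma voom, and 4 to 6 with libraries left out. Over all genes the nmd4Δ calls also became fewer, from 836 higher and 889 lower to 89 and 43 in batch 1 alone. With the block in limma voom they were 250 and 266. In ebs1Δ the 3 calls became 5 without a batch term or with summed libraries, and 2 to 4 with libraries left out. With libraries left out, 3 to 4 members were called for upf1Δ against nmd4Δ, 2 to 4 for upf1Δ against ebs1Δ and 0 to 4 for nmd4Δ against ebs1Δ; with only the 2 groups compared these last were 2 and 0, and for nmd4Δ against ebs1Δ 0 in batch 1 alone. Same-numbered libraries correlated at -0.0824 to 0.510 (median 0.132, 9 of 15 pairs above 0.1) and differently numbered ones at -0.632 to 0.411 (median -0.07, 4 of 30 above 0.1). Pairing by number was taken from the data for upf1Δ with nmd4Δ only. With the number as a block 3 members were called in nmd4Δ against wild type (HXT5, adjusted p = 0.066, and HXT6, 0.144, were lost), HXT2 in nmd4Δ against ebs1Δ was lost (0.0728), and the calls lost elsewhere stand beside their results. Over all genes 902 were then higher and 891 lower in nmd4Δ against wild type. This block joins like numbers in both batches and so does not follow the matched pairs, such as wild type replicates 1 and 3. Family sums by total counts, without TMM scaling, were 1957.4 CPM in upf1Δ and 1666 in nmd4Δ. The wild type sum on that scale is not given here, so these are not comparable with its TMM sum. TMM factors were 0.959 to 0.987 in wild type and 1.05 to 1.11 in upf1Δ, so the distance between their sums depends on the scaling. With TMM and libraries left out, the sums were 1982 to 2015 in wild type, 1744 to 1849 in upf1Δ, 1697 to 1740 in nmd4Δ and 1842 to 2370 in ebs1Δ. With HXT6 and HXT7 merged, which leaves 1 low gene fewer, the high minus low median became -0.96 in upf1Δ, -0.35 in nmd4Δ and -0.20 in ebs1Δ, from -0.55, -0.05 and 0.17. Log2 values that changed sign were uncalled. Against wild type in upf1Δ, HXT1 was -0.0020 with no filter and -0.011 with the merged pair, and HXT6 was 0.11 without a batch term, 0.016 in batch 1 alone, 0.011 with only the 2 groups, 0.036 with the replicate block and 0.13 with summed libraries. HXT8 in nmd4Δ was -0.021 in batch 1 alone, and HXT6 in nmd4Δ against ebs1Δ 0.034 with the replicate block. With libraries left out, the ranges in upf1Δ against wild type were -0.087 to 0.056 for HXT1, -0.099 to 0.17 for HXT2 and -0.33 to 0.21 for HXT6. HXT2 in nmd4Δ ran from -0.26 to 0.0034 and HXT3 in ebs1Δ from -0.32 to 0.11. Between deletions, HXT3 ran from -0.10 to 0.020 (upf1Δ against nmd4Δ) and -0.40 to 0.052 (nmd4Δ against ebs1Δ), HXT5 from -2.4e-05 to 0.95 (upf1Δ against ebs1Δ) and -0.54 to 0.41 (nmd4Δ against ebs1Δ), and HXT6 from -0.11 to 0.042 (nmd4Δ against ebs1Δ). The cause of these changes was not tested. Leaving out a matched pair together was chosen after seeing the data. HXT9 and HXT10 rest on 32 to 121 reads per library, which limits what small changes could be seen.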
